A study of Mus musculus with 20 samples.

Results

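The genes described here make and pack the killing granule of cytotoxic lymphocytes: the granzymes Gzma, Gzmb, Gzmk and Gzmm, perforin (Prf1), the serpins Serpinb9 and Serpinb6b, and the granule genes Nkg7, Ctsw and Srgn. They were taken by gene symbol, which gave 12 probe sets of 45101 for 10 genes of the 18193 that the array's annotation names by a probe set of their own. Prf1 and Serpinb9 had 2 probe sets each and the other genes 1. Their RNA was followed over 20 arrays of cells sorted from mouse bone marrow, at 8 to 14 weeks of age. Mature natural killer (NK) cells came from Rag2-deficient mice of the 129 strain, either with Ets1 (Rag2-- Ets1++, n = 2) or without it (Rag2-- Ets1--, n = 2). Wild-type C57bl/6 mice gave 7 further populations. The early ones were stem cells (HSC), multipotent progenitors (MPP) and the lymphoid-primed form of the latter (LMPP), with 2 arrays each. The committed progenitors were common lymphoid (CLP) and granulocyte-monocyte progenitors (GMP), with 3 arrays each. CD4 T cells and pro-B cells, with 2 arrays each, completed the set. All NK arrays therefore share the 129 strain and the loss of Rag2, a gene needed to rearrange antigen receptors, so strain, Rag2 and cell type cannot be told apart between NK cells and the other populations. The labels name neither the Ets1 allele nor the sorting markers, and do not say whether replicates were separate animals. The p-values therefore set each difference against the variation among these arrays, pooled over the 9 groups, and part of that variation may be technical.

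Cytotoxic lymphocytes store perforin and granzymes in secretory lysosomes, bound to the proteoglycan serglycin, and release them onto a target cell. Perforin forms pores through which the granzymes, a family of serine proteases, reach the cytosol of the target. The killer cell carries inhibitory serpins against its own granzymes. Ets1, the founding member of the ETS family of transcription factors, is needed for normal NK cell development, and the stated purpose of the series was to find genes of NK cells that depend on it.

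The intensities were compared as log2 values, with array medians between 3.78 and 4.04, a level used here as a guide to background. Ets1 itself was read by 4 probe sets. One of them, 1422027_a_at, fell from 8.34 and 8.51 in the Ets1-present arrays to 6.53 and 7.22 in the Ets1-deficient arrays, a difference of -1.55 ± 0.31 (SE, adjusted p = 0.00676), and the others differed by -0.93, -0.81 and -0.33 without passing the test. Which part of Ets1 was deleted is not given, so these probe sets do not settle the labels. Arrays of 1 group correlated at 0.912 to 0.996. Among the CLP arrays, 1 and 2 correlated best (0.936) and 2 and 3 least (0.912). The 3' actin probe set was above the 5' one by 5.20 and 5.27 in CLP arrays 1 and 3, against 3.26 in CLP array 2. In GMP this gap, a sign of RNA quality, was 6.44 to 6.68, and in the NK arrays 2.76 to 2.90 apart from Ets1-deficient replicate 2, at 4.07. NK marker genes (Ncr1, Klrd1, Il2rb, Eomes and Tbx21, 5 of 6 listed found) were summed as linear intensities, given as log2. The sum was 13.51 to 13.53 in Ets1-present and 13.23 to 13.25 in Ets1-deficient NK arrays. It was 8.69 to 9.43 in CD4 T cells and at most 7.60 elsewhere. Klrd1, at means of 13.03 and 12.87, made up most of the NK sum. Between the genotypes Ncr1 differed by -1.10, Tbx21 by -0.72, Il2rb by -0.53, Eomes by -0.25 and Klrd1 by -0.16, none passing the test.

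In NK cells without Ets1, the RNAs of granzyme B and granzyme K were higher, whereas none of the 10 genes passed the test in the lower direction. Gzmb was 6.38-fold and Gzmk 2.74-fold higher. Ctsw (-1.02 ± 0.32, adjusted p = 0.0979) and Prf1 on 1451862_a_at (1.06 ± 0.31, 0.0664) missed the threshold. Both passed it, in these opposite directions, with the NK arrays fitted alone and with array weights. Of the 12 probe sets, all of them tested, 2 were called higher and 0 lower, where 1.46% of the 28989 probe sets tested were called higher and 2.35% lower (3.8% either way, limma, adjusted p below 0.05). The median difference over the 12 was 0.21, beside 0.01 over all probe sets tested. Before adjustment 5 of the 12 had a p below 0.05, against 13.9% of all probe sets. The Ets1-present and Ets1-deficient arrays were fully apart for 10 of the 12, but with 2 arrays on each side this held for 54.1% of all probe sets. In bulk RNA, fewer cells of a type and less RNA per cell cannot be told apart.

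**Figure D1:**
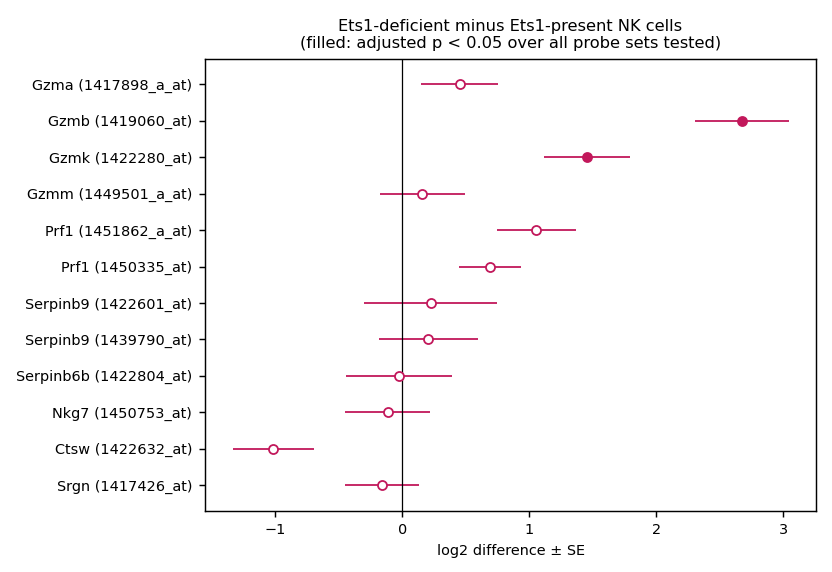
Difference between Ets1-deficient and Ets1-present NK cells (log2 units, x axis) for the 12 probe sets, as points with bars of 1 SE from the limma model (n = 2 per genotype). The filled points, Gzmb at 2.67 and Gzmk at 1.45, passed the test at an adjusted p below 0.05, and open points did not.

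Granzyme B, the granzyme that cleaves after aspartate and can activate caspases, showed the widest gap between the genotypes. Gzmb was at 8.08 and 8.29 in Ets1-present NK cells and at 11.12 and 10.60 in Ets1-deficient NK cells. Both arrays without Ets1 were above both arrays with it, by 2.67 ± 0.37 (SE, adjusted p = 0.000232), the 42nd highest difference of the 28989. Gzmb was called in each of the 13 alternatives run, at 2.42 to 2.93.

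Granzyme K, a trypsin-like granzyme, was at 7.94 and 7.92 with Ets1 and at 9.20 and 9.57 without it. The groups were again apart, by 1.45 ± 0.34 (adjusted p = 0.0197). This call was less firm. It was lost without Ets1-present replicate 1 (1.46, adjusted p = 0.131), without Ets1-present replicate 2 (1.44, 0.135), without Ets1-deficient replicate 2 (1.27, 0.149) and with arrays centred on housekeeping genes (1.32, 0.131). Ets1-deficient replicate 2 is the NK array with the wider actin gap, whose part was not tested, and without it Gzmb was still called (2.93, adjusted p = 0.00116).

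The stretches before the start sites of both called genes are shown because Ets1 binds DNA through a GGAA core. They are the 250 bases before a transcript start listed by RefSeq (GRCm38.p6), 5' to 3' on the gene's strand, with GGAA and its complement TTCC in capitals. They lie at chr14:56262335-56262584 (minus strand, Gzmb) and chr13:113180966-113181215 (minus strand, Gzmk).
Gzmb: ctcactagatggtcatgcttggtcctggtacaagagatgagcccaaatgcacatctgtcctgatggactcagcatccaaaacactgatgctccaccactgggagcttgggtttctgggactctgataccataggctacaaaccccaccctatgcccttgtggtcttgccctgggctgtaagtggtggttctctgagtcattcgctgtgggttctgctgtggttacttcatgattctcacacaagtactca
Gzmk: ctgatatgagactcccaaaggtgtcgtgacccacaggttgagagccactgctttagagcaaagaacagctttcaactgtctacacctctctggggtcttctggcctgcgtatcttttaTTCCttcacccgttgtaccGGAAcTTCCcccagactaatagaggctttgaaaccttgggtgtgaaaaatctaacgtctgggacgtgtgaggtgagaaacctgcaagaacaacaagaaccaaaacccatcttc
The Gzmb window held 0 matches to GGAA on either strand, and the Gzmk window held 3. In the latter 2 of the 3 stood side by side, 1 on each strand. A GGAA was found in 93.4% of all 32851 RefSeq promoters of this length, with a median of 3, so the motif is nearly everywhere. The longer motif CCGGAAGT was found in 2.88% of all promoters and in 0 of the 11 promoters of these genes. Promoters were matched for 9 of the 10 genes. Serpinb6b and the first start of Gzmm held 5 GGAA, Nkg7 held 4, Gzma, Prf1 and both starts of Srgn held 3, and Serpinb9 and the second start of Gzmm held 2. Where a gene has several transcript starts a window can lie inside the gene's RefSeq bounds, as those of Serpinb9, Serpinb6b and the second starts of Gzmm and Srgn did in full and that of Prf1 did for 85 bases. These counts describe letters in 1 window and no binding was measured.

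Granzyme A, a trypsin-like granzyme abundant in resting NK cells, was at 13.10 and 13.18 with Ets1 and at 13.67 and 13.51 without it. The arrays did not overlap, but the difference of 0.45 ± 0.30 did not pass the test (adjusted p = 0.617, 95% interval -0.18 to 1.08). It passed in 1 of the 13 alternatives, with the NK arrays fitted alone (SE 0.065, adjusted p = 0.0221). The gene for granzyme K lies near that for granzyme A on chromosome 13, with 1 RefSeq gene model between them. Gzmm, a granzyme that prefers methionine, was at 4.20 and 5.15 with Ets1 and at 4.45 and 5.22 without it. The genotypes overlapped, and 5.22 was the highest value of this probe set on any of the 20 arrays.

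Perforin was read by a bright and a dim probe set. On the bright one, 1451862_a_at, Prf1 was at 10.54 and 10.94 with Ets1 and at 11.86 and 11.73 without it. The arrays did not overlap and the difference was 1.06 ± 0.31, with an adjusted p of 0.0664 that missed the threshold and an interval of 0.41 to 1.70. It passed with the NK arrays fitted alone (adjusted p = 0.0173) and with array weights (0.00647). On the dim one, 1450335_at, the values were 3.56 and 4.17 against 4.43 and 4.68, a difference of 0.69 ± 0.24 (adjusted p = 0.153) near background.

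The serpins showed no difference of the size seen for Gzmb. Serpinb9, the inhibitor of granzyme B in mouse cytotoxic cells, was at 10.93 and 10.87 with Ets1 and at 11.08 and 11.17 without it on probe set 1422601_at. Its second probe set, 1439790_at, gave 9.35 and 9.28 against 9.50 and 9.54. The differences of 0.22 ± 0.52 and 0.20 ± 0.39 had 95% intervals of -0.88 to 1.32 and -0.61 to 1.02, both below the estimate for Gzmb. These errors pool the spread of all 9 groups. With the NK arrays fitted alone they were 0.079 and 0.11, and neither difference passed the test (adjusted p = 0.154 and 0.314). Serpinb6b, a related serpin that is the next RefSeq gene to Serpinb9 on chromosome 13, was at 11.01 and 10.98 against 10.81 and 11.12. Its genotypes overlapped and its interval ran from -0.91 to 0.85.

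Among the other granule genes, Nkg7, a membrane protein of cytotoxic granules, was at 12.16 and 12.27 with Ets1 and 12.12 and 12.08 without it (-0.12 ± 0.33). Srgn, which encodes serglycin, was at 11.95 in both Ets1-present arrays and at 11.80 and 11.79 in the Ets1-deficient ones (-0.16 ± 0.29). Both gaps were small next to these errors, which pool the spread of all 9 groups. With the NK arrays fitted alone the errors were 0.063 for Nkg7 and 0.059 for Srgn. Neither gap passed the test there (adjusted p = 0.326 and 0.165). Ctsw, the cysteine protease cathepsin W of NK and CD8 T cells, was at 11.81 and 11.85 with Ets1 and 10.79 and 10.85 without it. It was the member with the lowest difference, -1.02 ± 0.32, on arrays that did not overlap, yet its adjusted p of 0.0979 missed the threshold. Ctsw passed with the NK arrays fitted alone (adjusted p = 0.00546) and with array weights (0.00912).

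Markers of other cells also differed between the NK genotypes. T cell markers (7 of 7 found) summed to 7.21 to 7.34 with Ets1 and 9.38 to 9.54 without it, against 12.99 in CD4 T cells. In that list 2 of 7 were called higher, Cd3g (3.96) and Cd3d (2.88). Not called were Cd3e (means of 5.13 with Ets1 and 5.06 without), Cd4 (4.43 and 4.24), Cd8a (3.87 and 4.02), Cd5 (2.65 and 2.90) and Cd6 (4.20 and 4.56). In CD4 T cells these genes averaged 8.36, 9.29, 4.43, 10.92 and 9.62. Neutrophil and monocyte markers (10 of 10 found) summed to 13.38 to 13.43 with Ets1 and 11.52 to 12.34 without it, and 5 of 10 were called lower. Mast cell and basophil markers (5 of 5 found) summed to 6.94 to 6.998 and 6.55 to 7.19, with Cpa3 called higher by 1.88, while Mcpt8 (-1.63, adjusted p = 0.0653) and Ms4a2 (-1.36, 0.0689) did not pass. Early lymphoid markers (4 of 4 found) summed to 7.97 to 8.12 with Ets1 and 6.46 to 6.73 without it, and Il7r was called lower (-2.59, adjusted p = 0.00174). Plasmacytoid and other dendritic cell markers (3 of 3 found) summed to 9.52 to 9.61 and 9.19 to 9.50, and Tcf4 was called lower (-1.25, 0.0161). Their part in the values of Gzmb, Gzmk, Prf1 and Ctsw was not tested.

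Across the 9 populations the RNAs of granzymes A, B and K, and of perforin on its bright probe set, were highest in NK cells. The dim Prf1 probe set, near background, averaged 4.06 in GMP, between Ets1-deficient (4.55) and Ets1-present NK cells (3.87). Gzma lay between 13.10 and 13.67 on the 4 NK arrays and between 3.78 and 5.18, with a median of 4.21, on the other 16. The lowest NK value was 7.93 above the highest other value. Gzmk and the bright Prf1 probe set were highest in NK cells and next in CD4 T cells. Gzmk was at 5.02 and 3.88 there and averaged at most 3.43 in the other wild-type populations. Prf1 was at 6.85 and 6.80 in CD4 T cells, apart from NK cells above and from CLP below (4.12 ± 0.47, SD, n = 3), and each of the 6 lower groups overlapped the next. Gzmb had another order. After both NK groups came GMP, at 4.86, 5.16 and 5.08, then MPP, whose arrays at 5.06 and 3.57 disagreed, and CD4 T cells at 4.04 and 3.42 were no higher than HSC at 3.79 and 3.71.

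**Figure D2:**
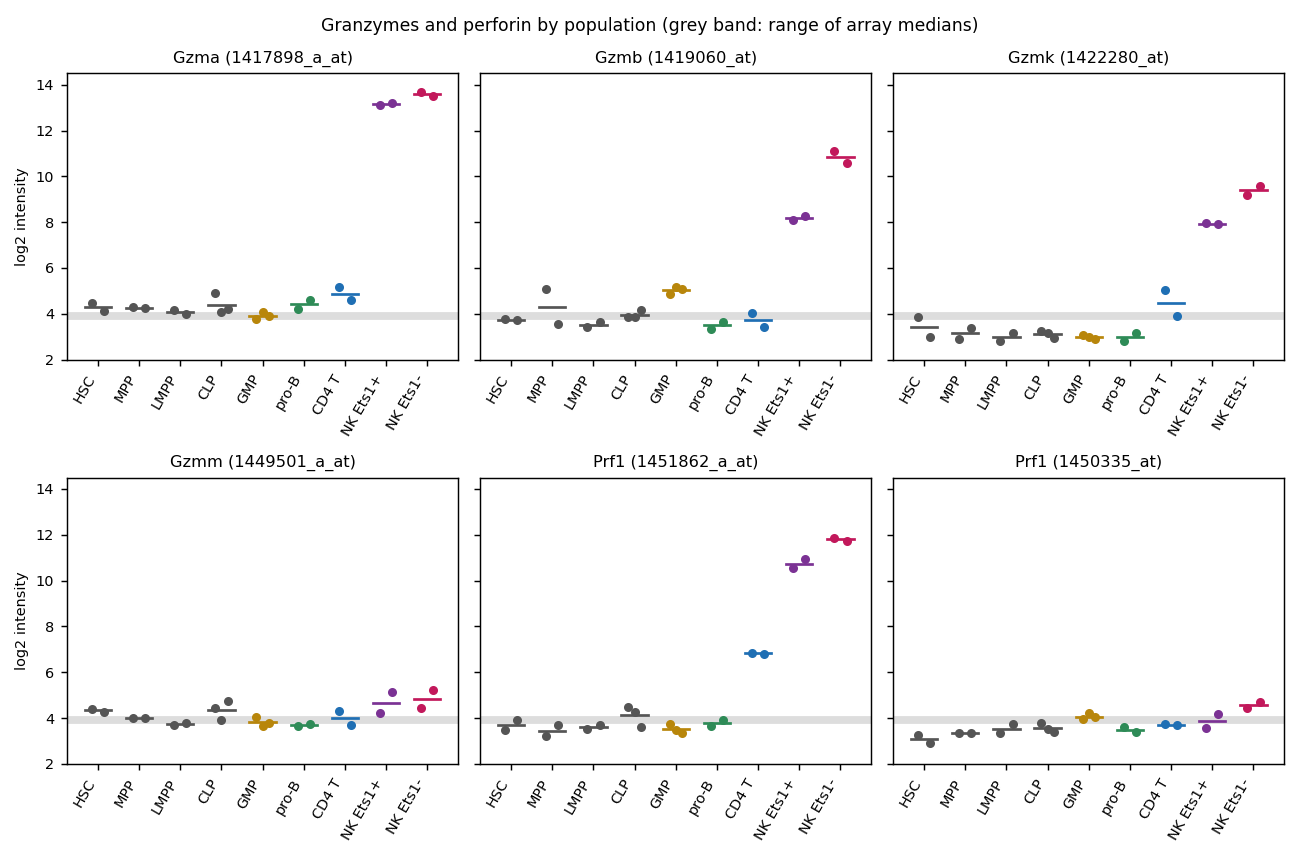
log2 intensity (y axis) of the 4 granzymes and the 2 Prf1 probe sets in 9 populations (x axis), with 1 point per array and a line at each group mean. The grey band spans the array medians, 3.78 to 4.04. Gzma, Gzmb, Gzmk and the bright Prf1 probe set stand out in both NK groups, whereas Gzmm and the second Prf1 probe set reach at most 5.22 and 4.68.

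The serpins were also highest in NK cells but had a second level above background in other populations. On 1422601_at, Serpinb9 averaged 6.99 ± 0.29 (SD, n = 2) in CD4 T cells and 6.77 ± 0.56 in HSC, which overlapped, and 4.69 ± 0.13 (n = 3) in GMP, the lowest. The second probe set gave 5.41 in CD4 T cells, 5.17 in HSC and means of at most 3.87 in the other wild-type groups. Serpinb6b followed the same order at the top, with 6.90 ± 0.52 in CD4 T cells, 6.22 ± 0.41 in HSC, 5.62 in LMPP and 5.58 in MPP. It was at 4.13, 3.86 and 3.81 in CLP, pro-B cells and GMP, whose arrays overlapped.

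Nkg7 and Ctsw parted in the progenitors. Nkg7 was at 10.32, 10.54 and 10.62 in GMP, at 9.75 and 9.96 in MPP and at 9.26 and 9.23 in LMPP. These groups stood apart from each other and from NK cells. CLP, CD4 T cells and HSC followed with overlapping neighbours (8.26, 7.69 and 7.28), and pro-B cells were at 4.97 and 4.05. Ctsw was second in CD4 T cells, at 9.02 and 9.30, then at 6.70 to 7.87 over the arrays of CLP, LMPP, MPP and HSC. It was near background in GMP, at 4.03, 3.85 and 4.42, the group where Nkg7 was highest outside NK cells.

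Serglycin did not separate NK cells. Srgn was between 11.79 and 11.95 on the 4 NK arrays and between 10.55 and 12.49 on the others. GMP was the highest group at 12.45 ± 0.04, with LMPP and MPP next (12.29 and 12.28, overlapping), and pro-B cells at 10.55 and 11.29 the lowest. CLP array 2 was at 12.00, while CLP arrays 1 and 3 were at 10.97 and 10.96.

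**Figure D3:**
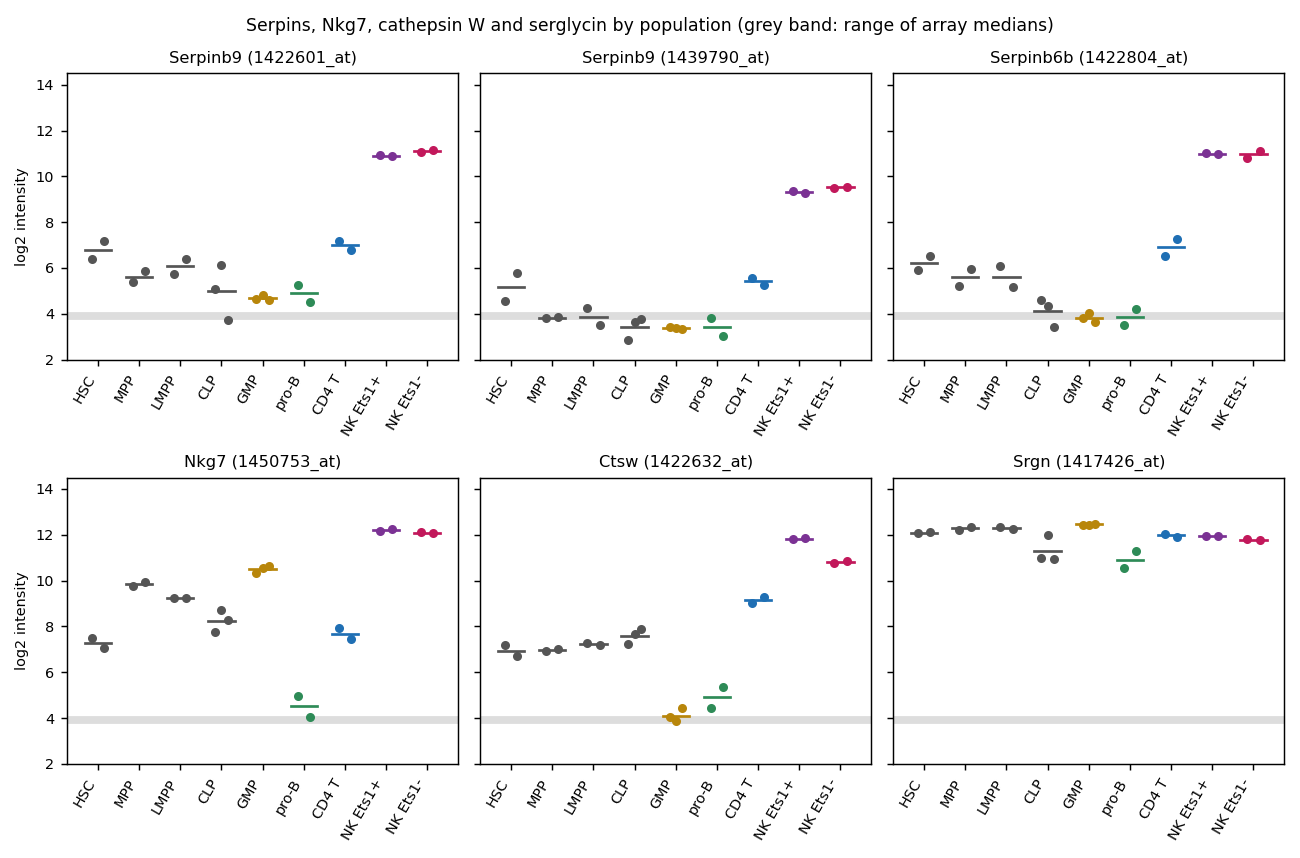
log2 intensity (y axis) of Serpinb9 (2 probe sets), Serpinb6b, Nkg7, Ctsw and Srgn in 9 populations (x axis), with 1 point per array, a line at each group mean and a grey band over the array medians, 3.78 to 4.04. Nkg7 is high in GMP where Ctsw is near the band, and Srgn lies between 10.55 and 12.49 on every array.

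NK cells of both genotypes, averaged, had more RNA of 8 of the 10 genes than CD4 T cells. Of the 12 probe sets 9 were called higher and 0 lower, where 15.1% of all probe sets were called higher, 12.6% lower and 27.8% either way, and the median difference was 4.05 beside 0.03. Gzma was higher by 8.48 ± 0.26 (SE, adjusted p = 6.73e-14). Gzmb was higher by 5.79 ± 0.32, Nkg7 by 4.47 ± 0.29, bright Prf1 by 4.44 ± 0.27 and Gzmk by 4.21 ± 0.29. Serpinb6b was higher by 4.08, Serpinb9 by 4.02 and 4.0, and Ctsw, already above background in CD4 T cells, by 2.16 ± 0.28. Gzmm (0.77 ± 0.29, adjusted p = 0.0576), the dim Prf1 probe set (0.49 ± 0.21, 0.0944) and Srgn (-0.10 ± 0.25, 0.824) did not pass. A difference from a group near background understates the change, because the lower value is mostly background. The actin 3' to 5' gap was 0.97 and 1.23 in CD4 T cells and 2.76 to 4.07 in the NK arrays, and its part was not tested.

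Set against CLP, the lymphoid progenitor, 11 of the 12 were higher in NK cells and 0 lower, where 32.1% of all probe sets were called higher, 21.2% lower and 53.3% either way. The median was 5.55 beside 0.10. Gzma differed by 8.97 ± 0.23, bright Prf1 by 7.15 ± 0.23, Serpinb6b by 6.85 ± 0.32, Gzmb by 5.56 ± 0.28 and Gzmk by 5.55 ± 0.26. On the CLP arrays Gzma was only 0.17 to 0.84 above the array median and bright Prf1 between -0.44 and 0.46 from it, so the sizes of these differences depend on the background level. Nkg7 (3.90 ± 0.26) and Ctsw (3.73 ± 0.25) differed less, and CLP had both RNAs well above the array medians. The calls of Srgn (0.56 ± 0.22, adjusted p = 0.0417) and dim Prf1 (0.65 ± 0.19, 0.00711) rested on overlapping arrays. With CLP array 2 as the only CLP array, Srgn was at -0.13 and dim Prf1 at 0.70 (adjusted p = 0.0598), and neither was called. Gzmm, at 0.40 ± 0.26, did not pass.

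**Figure D4:**
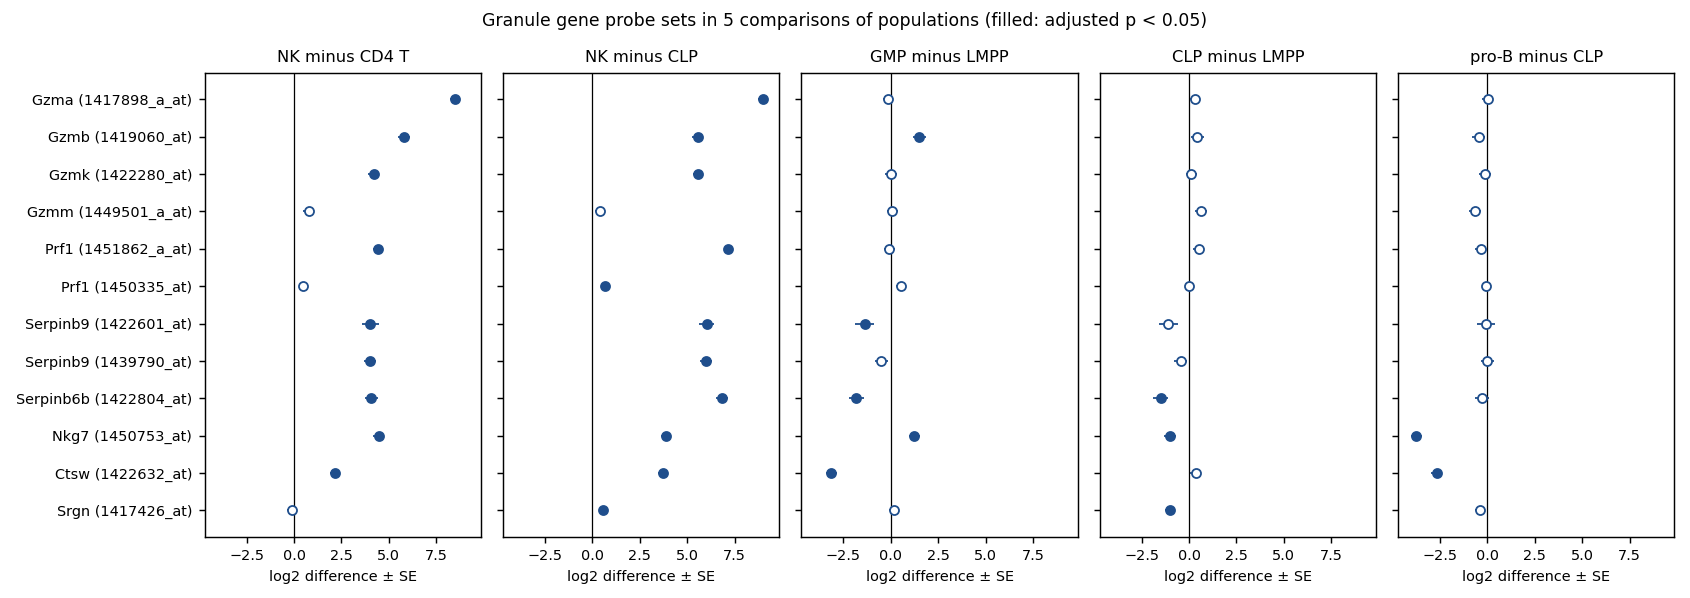
Differences between populations (log2 units, x axis) for the 12 probe sets, as points with bars of 1 SE from the limma model, in 5 comparisons. Filled points passed at an adjusted p below 0.05. The NK comparisons have 9 and 11 filled points to the right of 0, and the pro-B comparison has 2 to the left, Nkg7 and Ctsw.

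On the myeloid branch, GMP had more Gzmb and Nkg7 RNA than LMPP and less Ctsw, Serpinb6b and Serpinb9 RNA. In all 2 of the 12 were higher and 3 lower, where 13.8% of all probe sets were called higher and 10.7% lower (24.5% either way). Gzmb rose by 1.51 ± 0.34 (adjusted p = 0.00279) from 3.42 and 3.63, with no overlap, to levels not far above the array medians. Nkg7 rose by 1.25 ± 0.31 (0.0057). Ctsw fell by 3.13 ± 0.29. Serpinb6b fell by 1.81 ± 0.38 (0.00188). Serpinb9 fell by 1.38 ± 0.48 on 1422601_at (0.0428) and differed by -0.49 ± 0.35 on its other probe set. The call of Serpinb9 held in 6 of 14 alternatives, that of Serpinb6b was lost without LMPP replicate 1 (-1.34, 0.0674), that of Nkg7 without LMPP replicate 2 (1.24, 0.051), and those of Gzmb and Ctsw held in each of the 14. The actin 3' to 5' gap was 6.44 to 6.68 in GMP and 1.92 to 2.10 in LMPP, and its part in these differences was not tested.

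On the lymphoid branch, CLP were lower than LMPP in Serpinb6b (-1.50 ± 0.38, adjusted p = 0.00986), Srgn (-0.98 ± 0.27, 0.0139) and Nkg7 (-0.99 ± 0.31, 0.0284). These were 3 of the 12, with 0 higher, where 14.6% of all probe sets were called lower, 6.71% higher and 21.3% either way. With CLP array 2 as the only CLP array they were at -1.28, -0.29 and -0.52, and 0 of the 12 were called. Centred on housekeeping genes, 7 of the 12 were called higher and 0 lower. In that setting 15659 of all 28989 probe sets were called higher and 1272 lower, and the median of all moved by 0.94. The actin 3' to 5' gap was 5.20, 3.26 and 5.27 in CLP arrays 1, 2 and 3. It was 2.10 and 1.92 in LMPP and 2.07 and 3.11 in pro-B cells, and its part in either comparison was not tested. From CLP to pro-B cells, Nkg7 fell by 3.74 ± 0.31 and Ctsw fell by 2.68 ± 0.29, to values near background. These 2 of 12 (0 higher) stood beside 12.5% of all probe sets called lower, 17.5% higher and 30% either way, and both were called in each of the 15 alternatives run.

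Over the 9 group means, Pearson's r was above 0.9 for 20 of the 66 pairs of probe sets. It was 0.99 between Gzmk and bright Prf1, 0.95 between Gzma and Gzmb and 0.99 between Serpinb6b and Serpinb9. Srgn had r of -0.06 with Gzma and 0.56 with Nkg7. Nkg7 had r of 0.56 to 0.76 with the other probe sets, and the dim Prf1 probe set 0.042 to 0.82. These are descriptions over 9 means that share arrays. Where both NK means stand far above the rest, that gap alone gives a high r between any such probe sets. By the same measure, the genes outside the set most like Gzma were Klra7 (0.997), Klrc1 (0.997) and Dapk2 (0.997), of which Klra7 and Klrc1 encode NK receptors. Gzmb was closest to Dsp (0.994), Serpinb1b (0.984) and Mxra7 (0.983), and Gzmk to Rasgef1a (0.994), Slc41a2 (0.990) and Ddx43 (0.988). Prf1 was closest to Ddx43 (0.994), Gab3 (0.993) and Tbx21 (0.989), the T-box factor T-bet. Serpinb9 (0.990) and Serpinb6b (0.986) shared Zfp827 as the closest gene. Ctsw was closest to Sh2d3c (0.995), Nkg7 to Dock5 (0.942), Srgn to Glipr1 (0.963) and Gzmm, near background, to Ncdn (0.964).

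The machinery that matures, moves and releases the granule was taken from a list of 30 genes, of which 27 were tested by their brightest probe set. Between the NK genotypes 0 of the 27 were called in either direction (3 at an unadjusted p below 0.05), with a median of 0.09 beside 0.01. Tnfsf10, the death ligand TRAIL, had the largest difference, at 7.03 and 6.95 with Ets1 and 6.16 and 5.19 without it (-1.31 ± 0.38, adjusted p = 0.0657). Ctsh, a lysosomal cathepsin, was at 4.75 and 4.37 against 5.66 and 5.56 (1.05 ± 0.32, 0.0858). Ctsc, which cleaves granzymes into their active form, was at 11.49 and 11.66 against 11.72 and 11.97 (0.27 ± 0.39).

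Against CD4 T cells, 6 of 27 genes of this list were higher in NK cells and 3 lower, beside 15.1% and 12.6% of all probe sets. The death ligand Fasl was higher by 3.02 ± 0.28, Gnptab, which builds the mannose 6-phosphate tag of lysosomal enzymes, by 2.61 ± 0.48, and Vamp7 by 1.87 ± 0.36, while the lysosomal cathepsin Ctsl was lower (-3.38 ± 0.41). Against CLP, 21 of 27 were higher and 1 lower, beside 32.1% and 21.2%. Fasl differed by 6.45 ± 0.24, Stx11, a syntaxin of the release step, by 5.11 ± 0.27, Sytl2 by 3.63 ± 0.19 and Ctsc by 3.05 ± 0.30. In GMP against LMPP 8 were higher and 5 lower, beside 13.8% and 10.7%. In CLP against LMPP 1 was higher and 8 lower, beside 6.71% and 14.6%. In pro-B cells against CLP 6 were higher and 1 lower, which at 25.9% of the 27 in either direction was no more than the 30% of all probe sets. In these the largest changes were Ctsh (3.10 ± 0.29) and Stx11 (2.85 ± 0.32) in GMP, Vamp8 (-2.24 ± 0.43) and Coro1a (-2.18 ± 0.35) in CLP, and Vamp8 (2.41 ± 0.43) and Sytl1 (-2.35 ± 0.38) in pro-B cells.

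Relatives of the granule proteases and serpins formed a second list of 15 genes, 14 of them on the array and 8 tested. The granzymes Gzmc, Gzmd, Gzme, Gzmf, Gzmg and Gzmn were not above the array median on 2 or more arrays and were not tested. Between the NK genotypes 2 of the 8 were higher and 3 lower, beside 1.46% and 2.35% of all probe sets. An unadjusted p below 0.05 was found for 7 of the 8, beside 13.9% of all, and the median was -1.30 beside 0.01. Like the members and the first list, this list was chosen with earlier results of these data known, so these shares are descriptions only. Serpinb9b, the RefSeq gene next to Serpinb9, was at 4.53 and 5.02 with Ets1 and at 7.65 and 7.41 without it (2.76 ± 0.31, adjusted p = 2.66e-05). It had a gap like that of Gzmb, on arrays that did not overlap. Serpinb6a was at 6.97 and 6.93 against 8.12 and 8.21 (1.21 ± 0.32, 0.0415). The 3 called lower were proteases of neutrophil granules. Ctsg went from 6.35 and 6.30 to 4.65 and 3.11, Prtn3 from 7.36 and 7.31 to 5.68 and 4.30, and Elane from 5.85 and 6.03 to 4.85 and 4.36. They are members of the neutrophil and monocyte list above, 5 of whose 10 genes were called lower. The rest of that list was also lower without passing the test: S100a8 (-1.47), Camp (-1.39), Ngp (-1.37), S100a9 (-1.35) and Csf1r (-0.30). The part of such cells was not tested.

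**Figure D5:**
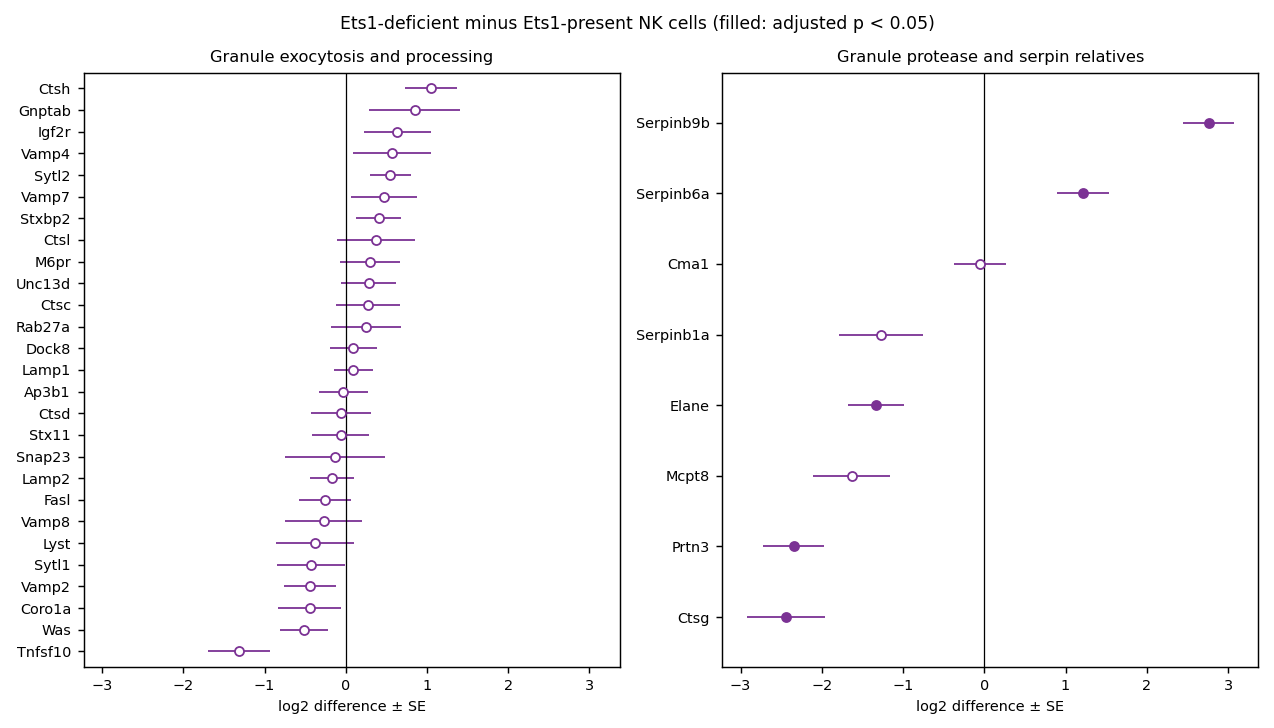
Difference between Ets1-deficient and Ets1-present NK cells (log2 units, x axis) for 27 genes of granule maturation and release (left) and 8 relatives of the granule proteases and serpins (right), as points with bars of 1 SE from the limma model (n = 2 per genotype). No point is filled on the left, and on the right Serpinb9b, Serpinb6a, Elane, Prtn3 and Ctsg are filled (adjusted p below 0.05).

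In the other comparisons, GMP exceeded LMPP in 4 of 8 relatives, beside 13.8% of all probe sets, namely Elane (3.35 ± 0.31), Ctsg (3.07 ± 0.44), Prtn3 (2.13 ± 0.34) and Mcpt8 (1.91 ± 0.43), with 0 lower. CLP were below LMPP in 2 of 8 (14.6% of all probe sets), Prtn3 (-6.57 ± 0.34) and Ctsg (-4.32 ± 0.44). Pro-B cells were below CLP in 1, Ctsg (-1.91 ± 0.44), where 12.5% of all were lower. NK cells exceeded CD4 T cells in 5 of 8 (15.1% of all), led by Serpinb9b (2.43 ± 0.27), Prtn3 (2.05 ± 0.32) and Cma1 (1.88 ± 0.28). Prtn3 is also on the neutrophil and monocyte list, whose 10 markers summed to 8.75 to 8.85 in CD4 T cells against 13.38 to 13.43 in Ets1-present and 11.52 to 12.34 in Ets1-deficient NK cells, and the part of such cells was not tested. NK cells exceeded CLP in 5 of 8 (32.1% of all) and were lower in Serpinb1a (-3.76 ± 0.39).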

How the data were processed

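RNA of sorted cells was amplified in 2 rounds, labelled with biotin and hybridised to Affymetrix mouse arrays, per the labels' protocols. The authors deposited 1 linear intensity per probe set and array, made with RMA per the submitters' processing notes (version not given in the sources used here). RMA evens out overall differences between arrays and compresses low values. The design had assumed log2 values, so log2 was taken first. Gene symbols came from the platform table, and gene order and promoters from RefSeq (GRCm38.p6). A probe set was tested if 2 or more arrays put it above their median, which kept 28989, left out 16048 as dim and set 64 controls aside. All 12 member probe sets passed. Comparisons used limma 3.58.1 (R 4.3.3; lmFit, then trended eBayes) on 1 model of all 20 arrays in 9 groups, which left 11 residual degrees of freedom. Benjamini-Hochberg adjustment ran over all 28989, and calls are at an adjusted p below 0.05. Errors of differences are SE and of group means SD. The script was tested on simulated data. Only 2 or 3 arrays per group limit the precision. Levels of different probe sets are not compared, but each marker sum is log2 of their added linear intensities and so leans on the brightest.

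Members and lists were chosen with earlier results of these data known. Named genes were all members, the 3 most alike genes per member, and up to 4 called genes per list, or the 2 with the largest change where none was called; Ctsc was added after its values were seen, as were further markers and genes of the relatives list. Alternatives were the filter, the trend, quantile and housekeeping normalization, a replicate block, 1 probe set per gene, array weights, the compared arrays alone, CLP array 2 alone and leaving out each replicate.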

Additional observations from a re-analysis of the deposited data

How the results depend on the processing

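The spread among the CLP arrays, the dim probe sets of Gzmm and Prf1, and 2 arrays per NK genotype set the limits. Leaving out 1 of 2 arrays leaves a lone array that is assumed to vary like the other groups. The cause of the changes below was not tested, except that 1 probe set per gene tests fewer features. Housekeeping centring, on 11 genes, moved the median of all probe sets by -0.13 between the NK genotypes, 0.14 in NK against CD4 T cells, -0.79 in NK against CLP, 0.25 in GMP against LMPP, 0.94 in CLP against LMPP and -0.74 in pro-B cells against CLP. It moved the share of called probe sets that were higher from 60.2% to 21.9% in NK against CLP (49.6% with repeated quantile normalization), from 56.2% to 74.5% in GMP against LMPP, from 31.5% to 92.5% in CLP against LMPP (44.1% with quantile) and from 58.3% to 15.6% in pro-B cells against CLP.

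Between the NK genotypes the 2 member calls became 1 with housekeeping centring, 4 with array weights and 5 with the compared arrays alone, and were 1 to 2 without 1 replicate. In GMP against LMPP the 5 became 3 to 4 without 1 replicate. In CLP against LMPP the 3 became 7 with housekeeping centring, 0 with the compared arrays alone, 0 with CLP array 2 alone and 0 to 5 without 1 replicate (0 without LMPP replicate 1, 5 without CLP replicate 2). In pro-B cells against CLP the 2 became 7 with housekeeping centring and 4 with CLP array 2 alone. The 9 calls in NK against CD4 T cells kept within 1.5 times in all alternatives, as did the 11 in NK against CLP.

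Over all probe sets, the 1102 calls between the NK genotypes became 628 with housekeeping centring, 514 with 1 probe set per gene, 3312 with array weights and 1864 with the compared arrays alone, and 406 (without Ets1-present replicate 1) to 777 without 1 replicate. The 8045 of NK against CD4 T cells became 4044 with 1 probe set per gene and 5072 (without CD4 T replicate 2) to 7115 without 1 replicate. The 15452 of NK against CLP became 7950 with 1 probe set per gene and 8742 with CLP array 2 alone. The 7099 of GMP against LMPP became 3900 with 1 probe set per gene, 14581 with array weights, 14107 with the compared arrays alone and 3954 to 5685 without 1 replicate. The 6180 of CLP against LMPP became 16931 with housekeeping centring, 3520 with 1 probe set per gene, 728 with the compared arrays alone, 2262 with CLP array 2 alone and 2521 to 9205 without 1 replicate. The 8693 of pro-B cells against CLP became 14971, 4728, 2336 and 4417 under the same 4 settings and 5504 to 11387 without 1 replicate.

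Signs turned for members that were called in neither setting, apart from Srgn and dim Prf1 against CLP. With housekeeping centring Srgn was at 0.037 in NK against CD4 T cells. In NK against CLP, Gzmm was then at -0.39, dim Prf1 at -0.14 and Srgn at -0.23 (-0.13 with CLP array 2 alone). In GMP against LMPP, Gzma was at 0.092 and Prf1 at 0.17 with housekeeping centring, Prf1 at 0.10 with the replicate block and Gzmk at -0.0027 with array weights. In CLP against LMPP, dim Prf1 was at -0.12 with quantile normalization and -0.021 with CLP array 2 alone, Serpinb9 1422601_at at 0.076 with CLP array 2 alone and Serpinb9 1439790_at at 0.50 with housekeeping centring. In pro-B cells against CLP, Gzma was at -0.72 with housekeeping centring, -0.037 with the replicate block and -0.16 with array weights. Dim Prf1 was there at 0.12 with quantile normalization, and Serpinb9 1439790_at at 0.14 with quantile normalization, 0.074 with the block and 0.20 with array weights.

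Without 1 replicate, the ranges that crossed 0 were, between the NK genotypes, -0.32 to 0.63 for Gzmm and -0.18 to 0.13 for Serpinb6b. In GMP against LMPP they were -0.19 to 0.20 for Gzmk, -0.012 to 0.18 for Gzmm and -0.18 to 0.027 for Prf1. In CLP against LMPP they were -0.067 to 0.32 for Gzmk and -0.17 to 0.21 for dim Prf1. In pro-B cells against CLP they were -0.17 to 0.26 for Gzma, -0.30 to 0.031 for Gzmk, -0.18 to 0.066 for dim Prf1, -0.72 to 0.50 and -0.38 to 0.37 for Serpinb9, and -0.62 to 0.078 for Serpinb6b.

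Deviations from the group means of samples with the same replicate number correlated at -0.0078 between the NK genotypes. With 2 arrays per genotype both replicate numbers give the same value, so it cannot settle whether the numbers pair the samples. With the replicate number as a block, 3 member probe sets were called between the NK genotypes (bright Prf1 joined, adjusted p = 0.0435) and 1207 probe sets in all.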
